A study of Mus musculus with 33 samples.

Results

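The comparison set the CCR2-positive phagocytes of inhibitor-treated mice against the CCR2-negative ones, using 12 of the 33 RNA-seq libraries of the series, and was made over all genes. Members were taken by their titles and matched to table columns by library name. The 6 libraries labelled blood-derived phagocytes held brain cells with high CD45, high CD11b and surface CCR2. The 6 labelled activated microglia held cells with the same high CD45 and CD11b but without CCR2. All 12 came from mice with an induced disease that the labels call Cortical MS, a mouse model of multiple sclerosis in the cortex, and all had received an inhibitor of CSF1R. The same pair of gates from vehicle-treated mice, 5 libraries each, served for the comparison between treatments. Resting microglia of inhibitor-treated mice, sorted on intermediate CD45 and CD11b, gave a reference level in 6 libraries. Strain, sex, age, compound, dose and the number of cells behind a given library are not given in the sources used here. Nor do the labels say whether libraries are separate animals, so p-values measure the spread between these libraries. Because the gates are defined by 3 surface proteins and no lineage label, a gate can hold more than a single cell type.

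CSF1R is the receptor for colony-stimulating factor 1 and interleukin 34, and its kinase signal keeps microglia and many macrophages alive. Microglia enter the brain in the embryo and renew themselves there, whereas CCR2-bearing monocytes leave the bone marrow, follow the chemokine CCL2 into inflamed tissue and mature into macrophages that take up debris. Neutrophils and natural killer cells also enter inflamed brain. Neutrophils carry high CD45 and CD11b and mostly lack CCR2, and mature mouse natural killer cells carry CD45 and CD11b too.

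Sequencing gave the 12 libraries totals of 16462745 to 22146705 counts over protein-coding genes. The 6 CCR2-positive libraries were alike, with 12774 to 13884 genes detected by at least 1 count and correlations of 0.949 to 0.971 between pairs of replicates. The CCR2-negative libraries were not alike. They had 9742 to 14038 detected genes and correlations of 0.645 to 0.938, and replicates 1 and 2 had fewer than 11000 detected genes and lay far from the rest on the first 2 principal components. In sum, 4 Y-linked genes had 173 to 261 counts per 1000000 counts of the library (CPM) in replicates 2 and 6 of either gate and at most 0.706 in the other 8 libraries. Counts of called genes without CCR2-negative replicates 1 and 2 are given below for the lists they change.

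The labels were checked against marker genes. Homeostatic microglial genes, a list of 17 that resident microglia express at rest, took 0.442% to 1.05% of counts in that gate (median 0.487%). The same list took 0.695% to 0.953% in the CCR2-positive gate (median 0.766%) and 4.29% to 6.74% in resting microglia (median 5.24%). P2ry12, the ADP receptor used as a microglial marker, had 50.2 to 414 CPM (median 110) in the CCR2-negative gate, 69 to 165 (median 86.5) in the CCR2-positive gate and 2179 to 4165 (median 2940) in resting microglia. Tmem119, another microglial surface marker, had 46.2 to 356 CPM (median 87.1), 197 to 271 (median 219) and 2219 to 3381 (median 2814) in the same order. Both markers thus lay far below resting microglia in every library of either phagocyte gate. Neutrophil genes took 2.22% to 15.8% of counts in the CCR2-negative gate, which goes against its label of activated microglia. Csf1, Cst7, Slc40a1 and Siglecf had levels there that overlapped those of resting microglia. Siglecf is also listed here as an eosinophil gene. Cst7 was lowest in CCR2-negative replicates 2 and 6 (45.6 and 35 CPM), the libraries lowest in natural killer cell genes. Lower homeostatic genes in microglia and fewer microglia in the gate cannot be told apart, so the populations are called here by their gates.

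With inhibitor, 2348 of 11614 genes tested (20.2%) differed between the gates at a Benjamini-Hochberg adjusted p under 0.05 in edgeR's quasi-likelihood test. Of these, 723 (6.23% of genes tested) were higher and 1625 (14%) were lower in the CCR2-positive gate. A difference of at least 1 log2 unit was reached by 424 of the higher and 1242 of the lower genes. The median log2 fold change over all genes tested was 0.013, and every fold change below is CCR2-positive minus CCR2-negative on the log2 scale, with its SE. CPM of the gates did not overlap at 2332 genes (20.1%), with the CCR2-positive gate higher at 1455 (12.5%) and the CCR2-negative gate higher at 877 (7.55%). Without CCR2-negative replicates 1 and 2, 3781 of 12075 genes were called (31.3%), of which 1590 were higher (13.2%) and 2191 lower (18.1%), and 2258 of the calls made with all libraries remained. In bulk RNA of this kind, fewer cells of a type and less RNA per cell cannot be told apart.

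**Figure D1:**
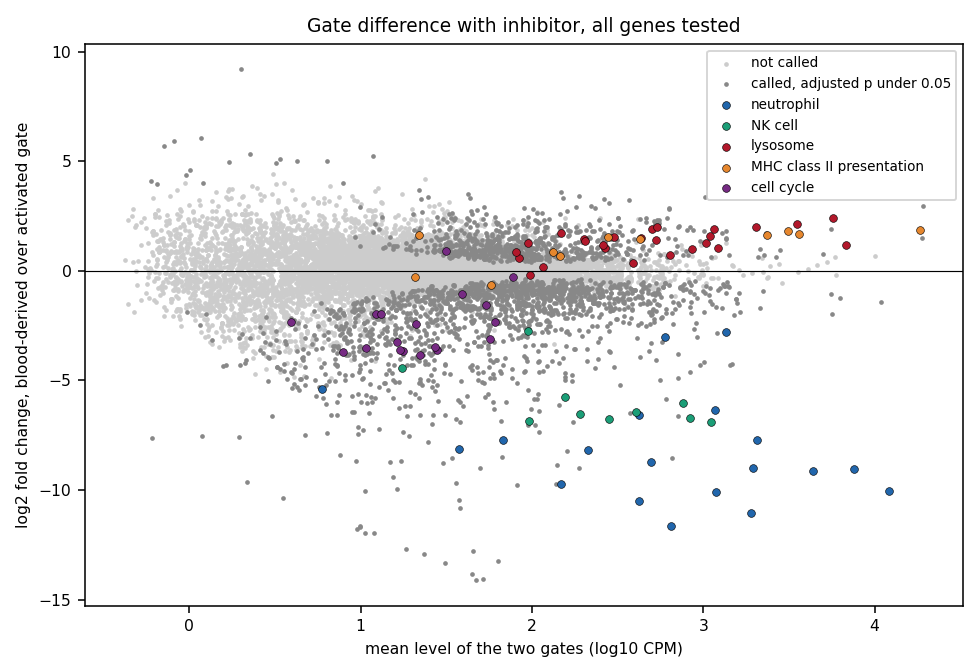
Log2 fold change between gates (CCR2-positive, labelled blood-derived, minus CCR2-negative, labelled activated; vertical axis) against the mean level (horizontal axis, log10 CPM) for the 11614 genes tested with inhibitor, each point a gene and colours marking called genes and members of named lists. Neutrophil and NK genes lie lowest, with medians of -8.74 and -6.48, and most lysosomal and MHC class II genes lie above zero.

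The most abundant transcripts per unit length were in part shared by the gates and in part not. In the deposited log2 FPKM values, the CCR2-positive gate was led by Apoe (median 14.86), the lipid carrier apolipoprotein E, followed by Lyz2 (14.39), which encodes lysozyme, and Cd74 (14.37), the invariant chain of MHC class II. Other leading genes of it included Fth1, Ftl1, Ctss, B2m, Tmsb4x and H2-Ab1. The CCR2-negative gate was led by S100a9 (median 15.4) and S100a8 (14.68), the subunits of calprotectin, a calcium-binding protein that fills the cytosol of neutrophils. Retnlg (12.53), Ngp (12.26) and Il1b (12.25) were also among its first 10. In the CCR2-positive gate S100a9 ranked 1594 and Retnlg ranked 9131, but Il1b ranked 17. Lyz2, Cd74, Fth1 and Tmsb4x were among the first 10 of both gates.

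Neutrophil genes were lower in the CCR2-positive gate. Of the 20 listed, 19 passed the filter on low counts, 18 were called lower (94.7% of those tested, beside 14% of all genes) and 0 were called higher. Their median fold change was -8.74 beside 0.013 over all genes. The list took 0.0588% to 0.0831% of counts (median 0.0729%) in CCR2-positive libraries, 2.22% to 15.8% (median 6.38%) in CCR2-negative ones and 0.0837% to 0.106% (median 0.0974%) in resting microglia. Every CCR2-negative library lay above every library of the other gates, and CCR2-negative replicate 2 held the most. Without CCR2-negative replicates 1 and 2, 18 of 20 were called lower with a median of -8.11.

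S100a9 had 9418 to 50800 CPM (median 21744) in CCR2-negative and 5.66 to 71.1 (median 24.5) in CCR2-positive libraries, and its fold change was -10.04 ± 0.87 (adjusted p = 7.3e-06). S100a8 had 4859 to 34238 CPM (median 12548) against 11.7 to 68.9 (median 35.7), a fold change of -9.06 ± 0.77. Neither gene's groups overlapped. Retnlg, a resistin-like protein secreted by neutrophils, had 1176 to 7851 CPM (median 3590) against 0.0497 to 5.74 (median 1.36), with a fold change of -11.07 ± 1.13 (adjusted p = 2.5e-05). Cxcr2, the chemokine receptor that draws neutrophils out of bone marrow and into tissue, had 515 to 1978 CPM (median 1401) against 0.0488 to 0.972 (median 0.49), a fold change of -11.66 ± 0.82. G0s2, an inhibitor of triglyceride lipase, had 601 to 1216 CPM (median 810) against 0.102 to 1.14 (median 0.802). Its fold change of -10.5 ± 0.58 had the smallest p of all genes (adjusted p = 9.8e-07). Padi4, which citrullinates histones in neutrophil extracellular traps, was lower by a fold change of -7.73 ± 0.61.

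Genes of granule formation belong to the maturing neutrophil. Ngp, neutrophilic granule protein, ran from 1111 to 23315 CPM (median 6166) in the CCR2-negative gate and from 5.61 to 62.4 (median 14.4) in the other, and its fold change was -9.14 ± 1.11. Camp, the cathelicidin, and Ltf, lactoferrin, were lower by fold changes of -8.74 and -8.98. The transcription factors Cebpe and Gfi1, both needed for granulocyte maturation, were also lower at -5.28 (adjusted p = 0.00113) and -5.10 (adjusted p = 0.00264). Elane, a protease of primary granules, was measured at -5.38 and not called by edgeR (adjusted p = 0.073), though it was called in 5 other settings, among them without CCR2-negative replicate 1 (-5.62, adjusted p = 0.0299) and without replicate 3 (-5.57, adjusted p = 0.0459). Mpo, the myeloperoxidase of the same granules, did not pass edgeR's filter on low counts with inhibitor. DESeq2, run without that filter, called all 20 genes of the list lower, Elane and Mpo included. Csf3r, the receptor for granulocyte colony-stimulating factor, had 973 to 3579 CPM (median 2360) against 348 to 442 (median 389), a fold change of -2.78 ± 0.37, and resting microglia had 816 to 1026.

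Promoter sequences of the calprotectin genes are shown, each picked for a motif. Of the called neutrophil genes with that motif in the bases shown, the gene printed had the smallest p. A match was thus fixed beforehand. The sequences are the 250 bases before the RefSeq start, from the GRCm38.p6 table, 5′ to 3′ on the coding strand, with motif matches in capitals. For S100a9 the window is chr3:90695722-90695971 on the minus strand and the capitals mark TTNNGCAA, a C/EBP motif, read on either strand. For S100a8 it is chr3:90668821-90669070 on the plus strand and the capitals mark GAGGAAGT, a PU.1 motif, read on either strand.
S100a9: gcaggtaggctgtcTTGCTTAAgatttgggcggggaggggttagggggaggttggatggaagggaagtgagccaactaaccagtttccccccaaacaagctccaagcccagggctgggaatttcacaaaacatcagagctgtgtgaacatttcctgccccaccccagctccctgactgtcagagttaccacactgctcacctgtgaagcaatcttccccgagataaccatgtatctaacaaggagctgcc
S100a8: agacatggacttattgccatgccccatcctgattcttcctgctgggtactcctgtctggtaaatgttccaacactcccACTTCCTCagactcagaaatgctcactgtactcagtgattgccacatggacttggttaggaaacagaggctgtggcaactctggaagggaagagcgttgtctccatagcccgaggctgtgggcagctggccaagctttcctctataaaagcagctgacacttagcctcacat
The C/EBP motif occurred in 7 of the 18 neutrophil genes with a promoter in the table (38.9%) and in 12.2% of all 27025 promoters. The PU.1 motif occurred in 6 of the 18 (33.3%) and in 3.69% of all. The C/EBP motif was as frequent in lists of other cell types, with 3 of 8 T cell genes (37.5%) and 2 of 5 astrocyte genes (40%). The PU.1 motif also occurred in 2 of 7 border-associated macrophage genes (28.6%) and 3 of 12 genes of the BCL2 family and apoptosis (25.0%). Such matches describe letters in a window of 300 bases, from 250 before to 50 after the start, and no binding was measured.

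The smallest p-values among lower genes were shared by genes of several immune cell types. Il18rap, a chain of the interleukin 18 receptor, had 156 to 421 CPM (median 308) in the CCR2-negative gate and 5.79 to 19.1 (median 9.29) in the CCR2-positive gate, a fold change of -4.98 ± 0.30. Il1f9, which encodes interleukin 36 gamma, had 144 to 413 CPM (median 333) against 0.486 to 2.38 (median 1.03). Neither overlapped between gates. Slc2a3, the glucose transporter GLUT3, was lower by -6.13 ± 0.40, the interferon-induced membrane protein gene Ifitm1 by -4.90 ± 0.32, the actin-binding Cnn2 by -3.27 ± 0.21 and Tmem71 by -2.90 ± 0.19. Akt2, a kinase of insulin and growth factor signalling, had the smallest change of those named by p, at -1.78 ± 0.12. Nlrp12, an NLR protein of myeloid cells, had 15267 counts in the CCR2-negative gate and 1 in the CCR2-positive gate, a depth-scaled ratio of 14378 with a 95% interval of 2580 to 567940 that covers counting error only.

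Natural killer (NK) cell genes followed. All 10 listed were tested and called lower in the CCR2-positive gate, beside 14% of all genes, with a median of -6.48. Gates did not overlap at 5 of them (50.0%, beside 20.1% of all genes). The list took 0.0408% to 1.73% of counts (median 0.748%) in CCR2-negative libraries against 0.00573% to 0.0286% (median 0.00772%) in CCR2-positive ones and at most 0.000606% in resting microglia. Its spread within the CCR2-negative gate was wide. Replicates 1, 3 and 5 held 1.36%, 1.73% and 1.18%, replicate 4 held 0.314%, and replicates 2 and 6, those with Y-linked transcripts, held 0.0603% and 0.0408%. Whether sex bears on this was not tested. Gzma, which encodes the cytotoxic protease granzyme A, had 104 to 4979 CPM (median 2097) against 9.8 to 47 (median 12), a fold change of -6.92 ± 0.95 (adjusted p = 0.00021). Ncr1, the activating receptor NKp46, had 28.5 to 1187 CPM (median 552) against 2.24 to 11 (median 4.15), at -6.74 ± 0.89. Gzmb and Klrb1c, granzyme B and the receptor NK1.1, were lower at -6.45 ± 0.89 and -6.52 ± 0.88. In the CCR2-positive gate, replicate 1 was highest for the list.

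**Figure D2:**
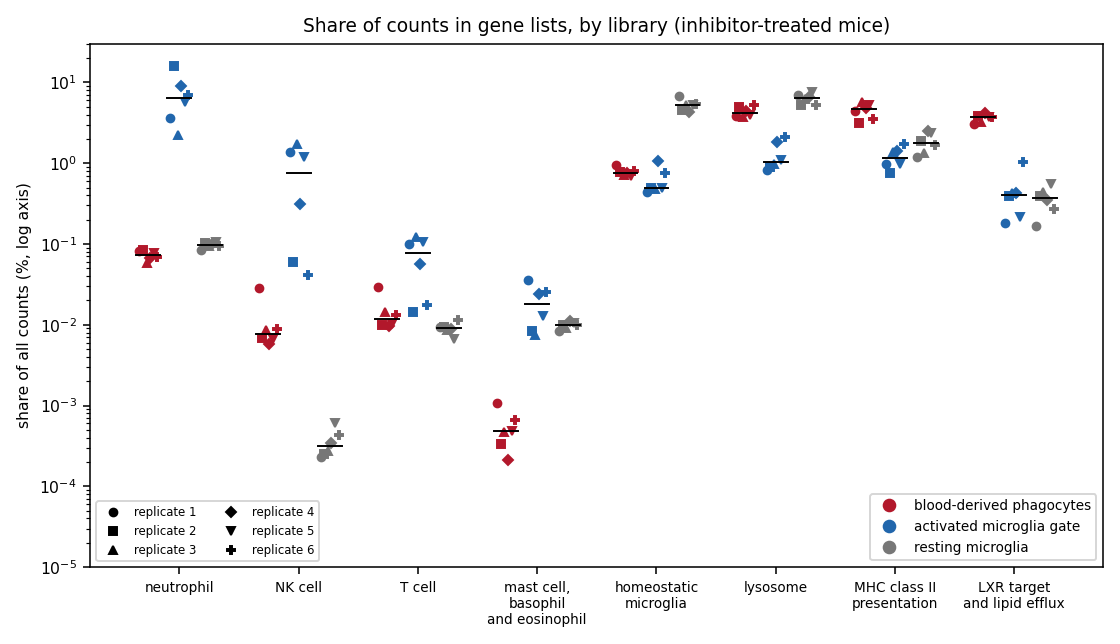
Percent of each library's counts (vertical log axis) in marker and functional lists, for the 3 gates of inhibitor-treated mice, each symbol a library and its shape the replicate number. Neutrophil genes take 2.22% to 15.8% in the CCR2-negative gate (labelled activated) and at most 0.106% in the others, while lysosomal and MHC class II genes lie higher in the CCR2-positive gate (labelled blood-derived) than in the CCR2-negative one, and lysosomal genes highest in resting microglia.

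Lymphocyte and eosinophil genes followed the same direction at lower levels. Of 13 T cell genes tested, 6 were called lower (46.2%, beside 14% of all genes) and 1 higher, with a median of -2.05. The gene called higher was Il7r, the interleukin 7 receptor chain, at 1.49 with an adjusted p of 0.0455, a call lost in 13 other settings. In the fit that left out CCR2-negative replicates 1 and 2, 10 of the 13 were called lower. Cd247, the zeta chain shared by T cell and NK receptors, and Lck, a kinase used in both cell types, changed most at -5.03 ± 0.92 and -4.75 ± 0.87, though their groups overlapped. Cd3d, a CD3 chain, had 29.3 to 50.5 CPM (median 37.2) against 0.439 to 12.5 (median 1.91) without overlap, and Cd3e was measured at -1.53 and was not called (adjusted p = 0.161), but was called without CCR2-positive replicate 1 (-2.68, adjusted p = 0.00521). Of 8 B cell genes, 6 were tested and 4 were called lower (66.7% of those tested, beside 14% of all genes). Cd79a, a signalling chain of the B cell receptor, had 11 to 32.7 CPM (median 18.8) against 0 to 0.497 (median 0.0731). Of 9 genes of mast cells, basophils and eosinophils, the 3 that passed the filter were all called lower, beside 14% of all genes. However, a gene near 0 in a gate passes that filter through the other gate alone. Prg2 and Ccr3 did so, as did some neutrophil and lymphocyte genes. Prg2, the eosinophil granule major basic protein, had 10137 counts in the CCR2-negative gate and 0 in the other, at least 3182-fold lower against a floor of 3 counts over the group. Ccr3, the eotaxin receptor, had 3781 counts against 3, a depth-scaled ratio of 1187 (95% interval 406 to 5758). Siglecf, carried by eosinophils and some macrophages, had 15.7 to 87.6 CPM (median 58.1) against 1.85 to 10.5 (median 4.57), and resting microglia had 82.8 to 109. Of 8 dendritic cell genes, edgeR called 0, with a median of 0.13, while 2 had an unadjusted p under 0.05 and DESeq2 called 2. Markers of neurons, astrocytes, oligodendrocytes, endothelium, mural cells and fibroblasts, and red cells took at most 0.0313% of counts per list in either gate.

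Genes of resident microglia differed between the gates about as often as all genes did. Of 17 tested, 1 was called higher and 2 lower in the CCR2-positive gate (17.6% called, beside 20.2% of all genes), with a median of 0.15. Tgfbr1, a receptor for TGF-beta, the factor that maintains microglial identity, had 632 to 882 CPM (median 788) in the CCR2-positive gate and 34.3 to 316 (median 85.7) in the CCR2-negative one, a fold change of 2.21 ± 0.52 (adjusted p = 0.00793), and resting microglia had 1173 to 2014. Selplg, the P-selectin ligand of microglia and most leukocytes, went the other way, with 404 to 631 CPM (median 447) against 1291 to 1699 (median 1568), at -1.88 ± 0.18. Sparc, a matrix protein gene of microglia, was lower at -2.26 ± 0.71 (adjusted p = 0.0386), a call that did not hold in 10 other settings. P2ry12, Tmem119, Cx3cr1 and Sall1 were chosen after their values were seen. Their fold changes were -0.85 ± 0.48, 0.47 ± 0.45, 0.15 ± 0.20 and -2.36 ± 0.92, edgeR called none (adjusted p = 0.25, 0.524, 0.647 and 0.0919), and the groups overlapped for each. Sall1 was called lower in 6 other settings, among them DESeq2 (-2.33, adjusted p = 0.0269), limma-voom (-4.23, adjusted p = 0.0011) and edgeR without CCR2-positive replicate 1 (-3.45, adjusted p = 0.0168). P2ry12 was called lower in 2, limma-voom (-1.48, adjusted p = 0.00493) and edgeR with detected genes as a covariate (-1.36, adjusted p = 0.0443). Sall1, the microglial transcription factor, had 7.07 to 61.7 CPM in the CCR2-negative gate, 0.175 to 20.1 in the CCR2-positive gate and 353 to 493 in resting microglia.

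Turning to what was higher in CCR2-positive phagocytes, lysosomal genes formed the longest list and had the most calls in this direction. Of 26 tested, 17 were called higher (65.4%, beside 6.23% of all genes and 63.6% of MHC class II genes), 0 lower, with a median of 1.31. Gates did not overlap at 21 (80.8%, beside 20.1% of all genes). The list took 3.77% to 5.28% of counts (median 4.16%) in the CCR2-positive gate, 0.832% to 2.13% (median 1.02%) in the CCR2-negative gate and 5.24% to 7.63% (median 6.35%) in resting microglia. Without CCR2-negative replicates 1 and 2, 19 of 26 were called higher with a median of 1.14. Psap, the precursor of the saposins that help lysosomal enzymes degrade sphingolipids (chr10:60277627-60302597 in GRCm38), had 7737 to 11841 CPM (median 9827) against 1030 to 3260 (median 1286). Its fold change was 2.42 ± 0.33 (adjusted p = 0.00019), and CCR2-negative replicate 6 was closest to the other gate. Npc2, which moves cholesterol out of the lysosome, had 743 to 964 CPM (median 881) against 102 to 329 (median 189), at 1.98 ± 0.24 (adjusted p = 8.3e-05). Lipa, the lysosomal acid lipase that frees cholesterol from its esters, had 278 to 325 CPM (median 300.0) against 49.9 to 142 (median 104), at 1.47 ± 0.18. Scarb2, a membrane protein of the lysosome, was higher at 1.34 ± 0.19.

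Other lysosomal members, named after their values were seen, moved alike. Ctsb, the protease cathepsin B, was higher at 2.13, Grn, progranulin, at 2.02, Lamp1, a membrane glycoprotein of the lysosome, at 1.92, Hexa, a lysosomal hydrolase, at 1.90 and Npc1, the membrane partner of Npc2, at 1.26. Those not called included Ctsl (1.02, adjusted p = 0.14) and Lamp2 (0.71, adjusted p = 0.11), and Lamp2 was called without CCR2-negative replicate 2 (0.88, adjusted p = 0.0495) or 6 (0.96, adjusted p = 0.0209). The vacuolar ATPase is the pump that acidifies lysosomes. Of its 15 genes, 3 were called higher and 1 lower (26.7% called, beside 20.2% of all genes) with a median of 0.08, and the CCR2-positive gate was higher without overlap at 6 (40%, beside 12.5% of all genes). Leaving out CCR2-negative replicates 1 and 2 gave 5 higher and 2 lower, and without replicate 6 alone 6 were called higher and 0 lower. Atp6v1c1 had the smallest p of these, at 0.70 ± 0.14 (adjusted p = 0.00261).

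The E-box CACGTG is the core of the element bound by TFEB, a regulator of lysosomal genes. The Lamp1 promoter is shown because, of called lysosomal genes with CACGTG in the 250 bases before the start, Lamp1 had the smallest p. A match was thus fixed beforehand. The Lamp1 bases lie at chr8:13158911-13159160 in GRCm38.p6 on the plus strand, from RefSeq, and the capitals mark the 4 CACGTG matches.
Lamp1: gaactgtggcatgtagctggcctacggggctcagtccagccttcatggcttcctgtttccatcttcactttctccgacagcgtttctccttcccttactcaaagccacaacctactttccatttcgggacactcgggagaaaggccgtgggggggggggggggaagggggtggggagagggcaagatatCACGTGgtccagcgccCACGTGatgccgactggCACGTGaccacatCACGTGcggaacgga
CACGTG, which reads the same on either strand, occurred in 7 of the 20 lysosomal genes with a promoter in the table (35.0%) and in 8.09% of all 27025 promoters. It was as frequent in vacuolar ATPase genes (4 of 11, 36.4%), cholesterol synthesis genes (3 of 8, 37.5%) and dendritic cell genes (3 of 6, 50.0%). The 7 were Ctsa, Ctsd, Ctsl, Gaa, Gla, Lamp1 and Mcoln1, and Psap, Npc2 and Lipa were not among them. Of the 7, Ctsa, Ctsd and Lamp1 were called higher.

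Genes of lipid handling were higher in the CCR2-positive gate for several transporters and carriers. The list held 11 genes, both forms of LXR, the nuclear receptor that senses oxidised cholesterol, and targets of it. Of these, 4 were called higher and 1 lower (36.4% and 9.09%, beside 6.23% and 14% of all genes) with a median of 1.27. Without CCR2-negative replicates 1 and 2, 6 were called higher. The list took 3.03% to 4.19% of counts against 0.181% to 1.02%. Most of that share was Apoe, which had 28960 to 40209 CPM (median 35807) against 1314 to 9560 (median 3546), a fold change of 2.94 ± 0.47 (adjusted p = 0.00063). Resting microglia had 451 to 4276 CPM of Apoe. Pltp, the phospholipid transfer protein, had 442 to 710 CPM (median 484) against 16.7 to 93.2 (median 46.7), at 3.08 ± 0.49. Abca1 and Abcg1, which export cholesterol, were higher at 2.41 ± 0.36 and 1.27 ± 0.29, and no library of these 4 genes overlapped between gates. Nr1h2, which encodes LXR beta, was the member called lower at -0.87, a call lost in 4 other settings. Cholesterol synthesis genes showed no calls among 14 by this test, with a median of -0.01, while 2 had an unadjusted p under 0.05 and DESeq2 called 1. Without CCR2-negative replicates 1 and 2, 1 of them was called higher and 2 lower.

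MHC class II genes, whose products show peptides to CD4 T cells, were higher by similar amounts. Of 11 tested, 7 were called higher (63.6%, beside 6.23% of all genes) and 0 lower, with a median of 1.55. Gates did not overlap at 7 (63.6%, beside 20.1% of all genes). The list took 3.10% to 5.80% of counts (median 4.64%) against 0.750% to 1.72% (median 1.17%), and 1.18% to 2.51% in resting microglia. Cd74 had 20433 to 36756 CPM (median 30556) against 4804 to 10489 (median 7045), a fold change of 1.85 ± 0.25 (adjusted p = 0.00017). H2-Aa, an antigen-binding chain, had 3346 to 6551 CPM (median 5013) against 801 to 1909 (median 1261), at 1.80 ± 0.24. H2-DMa and H2-DMb1, which load peptides, were higher at 1.45 ± 0.18 and 1.55 ± 0.21. Cd80, Cd86 and Cd40, which deliver the second signal to T cells, were measured at -0.27, 0.68 and 1.65 and were not called. For MHC class I, calls were about as frequent as over all genes (18.2%, beside 20.2%). Of its 11 genes, 0 were called higher and 2 lower, with a median of -0.12. Those were Nlrc5, its transactivator, at -0.88 ± 0.20 and the immunoproteasome subunit Psmb9 at -0.66 ± 0.17, with overlapping groups.

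Receptors for uptake were divided. Of 23 genes of phagocytosis and complement, 22 were tested, with a median of 1.11. In all, 7 were called higher and 4 lower (31.8% and 18.2%, beside 6.23% and 14% of all genes). The 4 lower include Itgam, which encodes CD11b, a protein the sort used, and which is no finding. Axl, a receptor tyrosine kinase that recognises dying cells through bridging proteins, had 841 to 1061 CPM (median 862) against 86.8 to 304 (median 152), at 2.31 ± 0.32 (adjusted p = 0.0002). Fcgr2b, the inhibitory Fc receptor, had 733 to 1012 CPM (median 863) against 63.7 to 314 (median 156), at 2.15 ± 0.34. C3ar1, the receptor for complement fragment C3a, had 976 to 1247 CPM (median 1136) against 56.5 to 339 (median 84.7), at 2.80 ± 0.48. All 3 were without overlap. Lrp1, a scavenger receptor for apolipoprotein E and debris, was higher at 2.37 and Msr1, scavenger receptor A, at 2.88 (adjusted p = 0.0293), a call lost in 9 other settings. Without CCR2-negative replicate 5, 4 of the list were called higher, and without replicate 6, 10 were. On the other side, C5ar1, the receptor for C5a, was lower at -2.38, the activating Fc receptor Fcgr4 at -1.0 and Itgb2, the integrin chain CD18, at -1.0 ± 0.13. Mertk, the receptor of apoptotic cell uptake, was measured at 1.89 (adjusted p = 0.192) and C1qa at 0.83 (adjusted p = 0.287).

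**Figure D3:**
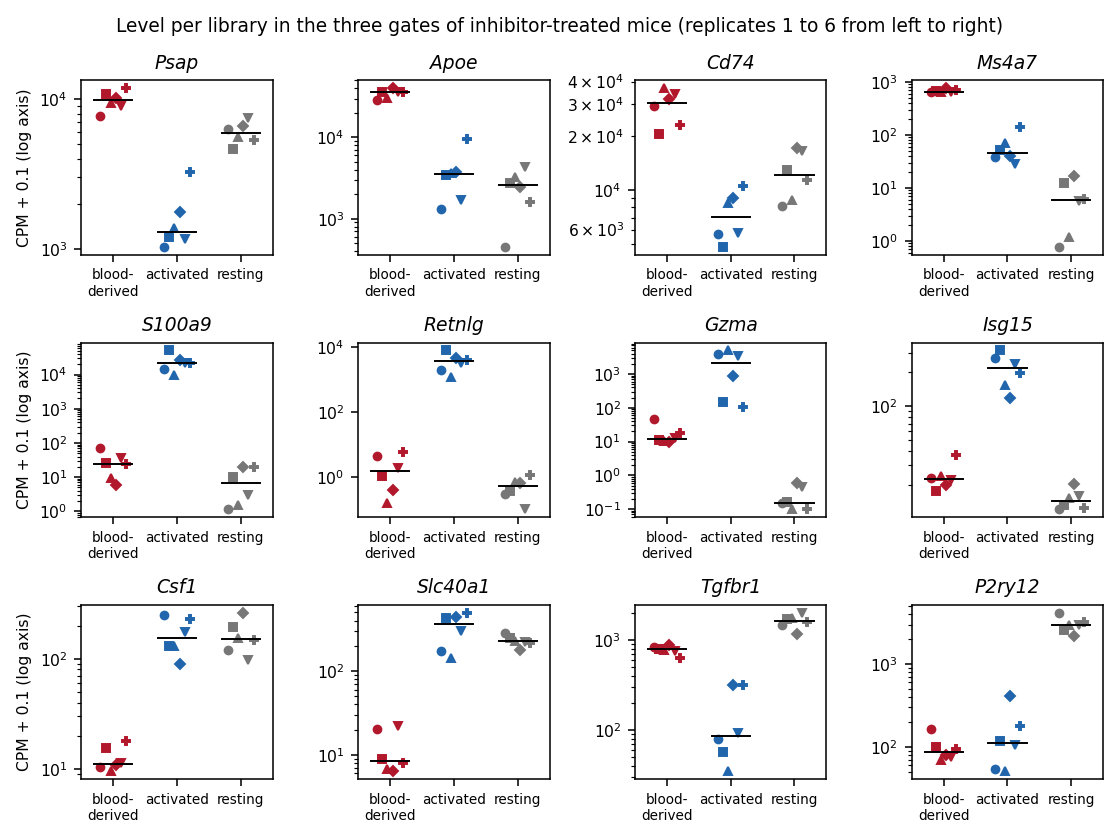
CPM per library on a log axis for single genes in the 3 gates of inhibitor-treated mice, with 0.1 added, each symbol a library with replicates 1 to 6 from left to right and the bar the median of the gate. Psap, Apoe and Cd74 stand higher in the CCR2-positive gate (labelled blood-derived), S100a9 and Gzma in the CCR2-negative gate (labelled activated), and P2ry12 stands far higher in resting microglia than in either.

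Among the 12 higher genes with the smallest p, 3 belonged to the Ms4a cluster of four-pass membrane proteins on chromosome 19. Ms4a6b (chr19:11516512-11531256) had 482 to 535 CPM (median 521) against 88.3 to 198 (median 163), a fold change of 1.64 ± 0.15 and the smallest p of any higher gene (adjusted p = 9.7e-06). Ms4a6c had 758 to 845 CPM (median 785) against 69.7 to 228 (median 117), at 2.39 ± 0.29. Ms4a7, a macrophage gene (chr19:11321039-11336146), had 633 to 761 CPM (median 657) against 28.2 to 143 (median 45.8), at 3.25 ± 0.40, and resting microglia had 0.675 to 16.7. Neighbours Ms4a6d and Ms4a4a, picked after their values were seen, were higher at 2.43 ± 0.46 and 3.42 ± 0.47, and none of these 5 overlapped between gates. Ms4a1, the B cell gene CD20 at chr19:11249675-11266241 in the same cluster, was lower at -4.96 ± 1.06. Counts of such near-identical neighbours are uncertain where reads could be split between them, as for the H2, Fcgr, Ly6c, Bcl2a1 and Ifitm families.

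Other leading higher genes had varied roles. Anxa5, which binds phosphatidylserine exposed on dying cells, had 584 to 657 CPM (median 604) against 123 to 215 (median 150.0), at 1.83 ± 0.19 (adjusted p = 2.5e-05), and 41.1 to 84.4 in resting microglia. Dnase1l1, a relative of DNase I, had 103 to 121 CPM (median 116) against 16.7 to 43.6 (median 31.2), at 1.79 ± 0.18. Cd302, a C-type lectin receptor, was higher at 1.85 ± 0.22, Pid1, an adaptor of lipoprotein receptor signalling, at 2.01 ± 0.25, Parp1, a DNA damage sensor, at 1.33 ± 0.16, Snx5, a sorting nexin of endosomes, at 1.17 ± 0.15 and Galnt7, an enzyme that starts O-linked glycans, at 1.04 ± 0.13. None of these 7 overlapped between gates.

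Genes named for disease-associated microglia, a state seen around plaques and demyelination, were split. Of 19 tested, 7 were called higher and 5 lower (36.8% and 26.3%, beside 6.23% and 14% of all genes), with a median of 0.33. They took 6.30% to 7.81% of counts against 0.825% to 2.96%, a share led by Apoe and Lyz2. Besides Apoe and Axl, Trem2, a lipid-sensing receptor, was higher at 1.77 and Cd68, a lysosomal glycoprotein of phagocytes, at 2.02. Csf1, the growth factor that activates CSF1R, was lower, with 9.44 to 18 CPM (median 11.1) against 89.1 to 251 (median 153), a fold change of -3.87 ± 0.30 (adjusted p = 3.3e-06). Cst7, the protease inhibitor cystatin F, was lower at -3.18 ± 0.41. Resting microglia had 96.5 to 261 CPM of Csf1 and 65.9 to 250 of Cst7, levels that overlapped those of the CCR2-negative gate. Gpnmb, a glycoprotein of lipid-laden macrophages chosen after its values were seen, had 1009 to 3109 CPM (median 1524) against 0 to 552 (median 93.8), at 3.37 ± 1.05 (adjusted p = 0.0365), a call lost in 13 settings. Of 11 genes of iron and haem handling, 10 were tested, with a median of 0.71. In all, 2 were called higher and 1 lower (20% and 10%, beside 6.23% and 14% of all genes). Without CCR2-negative replicates 1 and 2, 5 of 10 were called higher, beside 13.2% of all genes in that fit. The list took 1.19% to 1.60% of counts in the CCR2-positive gate and 0.531% to 1.06% in the CCR2-negative one. Its member called lower, Slc40a1, the iron exporter ferroportin, had 6.24 to 22 CPM (median 8.4) in the CCR2-positive gate, 141 to 496 (median 363) in the CCR2-negative gate and 179 to 287 (median 226) in resting microglia, at -5.03 ± 0.53.

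Genes named for monocyte-derived cells did not as a group mark the CCR2-positive gate. Of 16 tested, 3 were called higher and 8 lower (18.8% and 50.0%, beside 6.23% and 14% of all genes), with a median of -0.76. Ccr2 itself, which the sort used and which is no finding, had 212 to 331 CPM (median 232) against 11.9 to 95.5 (median 23), at 2.59 ± 0.45. The others called higher were Fn1, fibronectin, at 3.59 and Ms4a4c at 1.82. Those lower included Hp, the haemoglobin scavenger haptoglobin, at -4.29 ± 0.45, S100a6, a calcium-binding protein, at -3.68 ± 0.42 and Itgal, the integrin LFA-1 alpha chain, at -1.52 ± 0.18. CCR2-negative replicate 2 had the largest neutrophil share (15.8%). Within its gate it was highest for Hp and S100a6 (3186 and 1804 CPM) and lowest for Itgal (231 CPM). Whether neutrophils, which also express these genes, bear on the falls was not tested. Ly6c2, the surface antigen of inflammatory monocytes, had 414 to 862 CPM (median 574) against 723 to 1148 (median 974), at -0.83 ± 0.21 (adjusted p = 0.0117) with overlapping groups, and 0.689 to 5.09 in resting microglia. Of 8 genes of border-associated macrophages, 6 were tested, 2 were called higher and 1 lower (33.3% and 16.7%, beside 6.23% and 14% of all genes). F13a1, the coagulation factor XIII subunit, had 417 to 595 CPM (median 458) against 1.96 to 107 (median 35.3), at 3.26 ± 0.77, and Mrc1, the mannose receptor, was measured at 1.42 (adjusted p = 0.373).

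**Figure D4:**
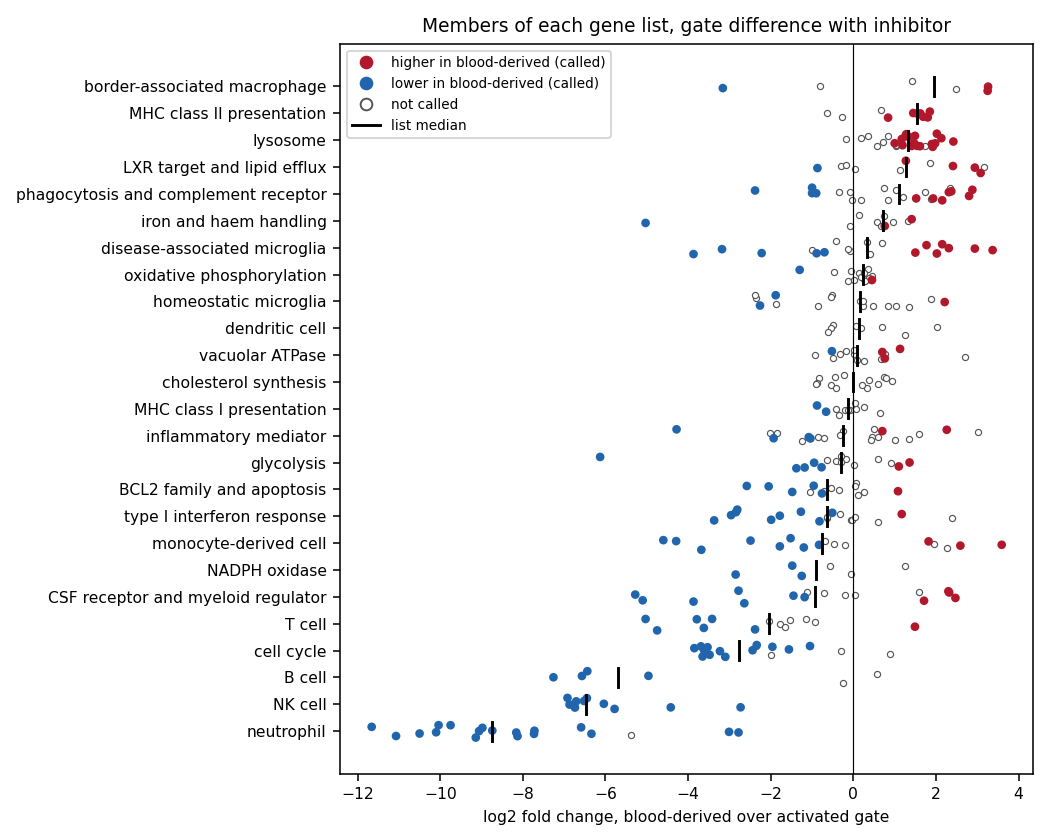
Log2 fold change of every tested member of the listed gene groups (CCR2-positive minus CCR2-negative gate, with inhibitor), each point a gene, filled where called, and the bar the group's median. Neutrophil and NK cell genes have medians of -8.74 and -6.48, cell cycle genes -2.77, lysosomal genes 1.31 and MHC class II genes 1.55.

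The receptor that the inhibitor targets and the factors of myeloid identity also differed. Csf1r had 3207 to 4222 CPM (median 3595) in the CCR2-positive gate, 272 to 1935 (median 659) in the CCR2-negative gate and 10460 to 13489 in resting microglia, at 1.71 ± 0.47 (adjusted p = 0.0188). Of 16 genes of CSF signalling and myeloid regulation, 4 were called higher and 7 lower, with a median of -0.92. These were 25.0% and 43.8% of the list, beside 6.23% and 14% of all genes. Cebpa and Klf4, which encode transcription factors of myeloid cells, were higher at 2.47 and 2.30. Cebpd, a factor of acute inflammation, was lower at -2.64 ± 0.32 and Spi1, which encodes PU.1, at -1.18. The Spi1 call was lost in 4 other settings. The other surface proteins of the sort are no findings either. Ptprc, which encodes CD45, was lower at -1.30 ± 0.13 and Itgam, which encodes CD11b, at -0.90 ± 0.16 although the labels give both gates as high for each.

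Of 18 interferon-stimulated genes tested, 9 were called lower in the CCR2-positive gate (50.0%, beside 14% of all genes), 1 was called higher and 8 were not called, with a median of -0.63. Isg15, a ubiquitin-like modifier, had 17.5 to 37 CPM (median 22.5) against 118 to 313 (median 218), a fold change of -3.37 ± 0.33 (adjusted p = 1.9e-05), and 12.1 to 20.2 in resting microglia. Ifit1, which binds viral RNA, had 15.9 to 38.5 CPM (median 26) against 129 to 337 (median 154), at -2.84 ± 0.28. Cmpk2 and Rsad2, neighbours on chromosome 12 that encode a nucleotide kinase and the antiviral enzyme viperin, were lower at -2.96 ± 0.38 and -2.81 ± 0.37. Bst2, tetherin, was the member called higher at 1.17. Mx1, an antiviral GTPase, was measured at 0.60 and was not called.

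The Isg15 promoter is shown because, of the called interferon genes with the motif below in these bases, Isg15 had the smallest p. A match was thus fixed beforehand. The 250 bases before the RefSeq start lie at chr4:156200819-156201068 in GRCm38.p6 on the minus strand, and the capitals mark a run of 3 overlapping matches to the interferon-stimulated response element, searched as 2 copies of GAAA with 2 bases between them.
Isg15: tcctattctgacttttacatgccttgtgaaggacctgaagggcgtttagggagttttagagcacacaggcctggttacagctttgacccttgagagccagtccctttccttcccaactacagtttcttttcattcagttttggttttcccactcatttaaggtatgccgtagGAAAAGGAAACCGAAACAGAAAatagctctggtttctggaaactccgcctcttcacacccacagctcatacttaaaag
Read on either strand, this motif occurred in 9 of the 14 listed interferon genes with a promoter in the table (64.3%) and in 3.99% of all promoters, and also in 2 of 3 NADPH oxidase genes (66.7%) and 3 of 9 MHC class I genes (33.3%). Stat2, Ifih1, Oas1a and Cxcl10 held it too, and of these Stat2 was called, at -0.82. Bst2, the member called higher, also held it, as did Ifit1, Ifit3 and Rsad2.

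Of 21 cytokine, chemokine and other inflammatory genes tested, 2 were called higher and 4 lower (28.6% called, beside 20.2% of all genes), with a median of -0.24. These counts were 4 and 3 without CCR2-negative replicates 1 and 2. Cxcl16, a membrane-bound chemokine and scavenger receptor, had 778 to 996 CPM (median 850.0) against 72.5 to 325 (median 130.0), at 2.26 ± 0.36. Ccl5, a chemokine of NK and T cells, had 89 to 185 CPM (median 133) against 145 to 5435 (median 2546), at -4.28 ± 0.75, and its CCR2-negative replicates 2 and 6, at 235 and 145 CPM, were those low in NK genes. Cxcl2, which attracts neutrophils through Cxcr2, had 119 to 456 CPM (median 300.0) against 533 to 1503 (median 1090.0), at -1.93 ± 0.38. Il1b was lower at -1.04 (adjusted p = 0.0265), a call lost in 8 other settings, and Tnf at -1.08 ± 0.30 (adjusted p = 0.0224), but the Tnf call was lost without CCR2-negative replicates 1 and 2 (-0.74, adjusted p = 0.0754). Nos2, Arg1 and Il6, at 0.49, 3.01 and -1.25, were not called, though Arg1 was called without CCR2-negative replicate 6 (5.15, adjusted p = 0.0234).

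Cell cycle genes were lower in the CCR2-positive gate. Of 18 tested, 14 were called lower (77.8%, beside 14% of all genes) and 0 higher, with a median of -2.77. Gates did not overlap at 9 (50.0%, beside 20.1% of all genes), with the CCR2-negative gate higher at 8. The list took 0.0200% to 0.0273% of counts (median 0.0240%) against 0.0458% to 0.157% (median 0.0693%), with 0.0234% to 0.0636% in resting microglia. Top2a, the topoisomerase of dividing cells, had 8.56 to 21.1 CPM (median 10.7) against 50 to 245 (median 78.8), at -3.10 ± 0.33 (adjusted p = 3.4e-05). Kif11, a mitotic motor, had 0.607 to 6.5 CPM (median 2.97) against 24.3 to 60.6 (median 40.7), at -3.85 ± 0.50. Birc5, survivin, and Rrm2, a ribonucleotide reductase subunit, were lower at -3.61 ± 0.46 and -3.48 ± 0.43. Ccnd3, cyclin D3, and Cdkn2d, an inhibitor of cyclin-dependent kinases, are not members of the list and were named for their small p, at -3.08 ± 0.19 and -3.43 ± 0.23. Replicate 3 of the CCR2-negative gate, which had the highest NK share, also had the highest cell cycle share, at 0.157%.

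In the remaining groups only part of the genes were called. Of the 6 NADPH oxidase genes, which make the oxidative burst, 3 were called lower (50.0%, beside 14% of all genes) and 0 higher. Rac2 had 311 to 378 CPM (median 316) against 1525 to 2506 (median 2102), at -2.85 ± 0.20, and Ncf4 was at -1.48 ± 0.27. In glycolysis, 2 of 15 were called higher, Tpi1 at 1.36 ± 0.18 and Pfkl at 1.10 ± 0.24, and 5 lower, with a median of -0.30. These were 13.3% and 33.3% of the list, beside 6.23% and 14% of all genes. In oxidative phosphorylation 1 of 15 was called in each direction, 13.3% called beside 20.2% of all genes. Of 14 genes of the BCL2 family and apoptosis, 5 were lower and 1 higher (42.9% called, beside 20.2% of all genes). Bid, a trigger of mitochondrial death, was lower at -1.48 ± 0.19 and the death receptor gene Fas at -2.58 ± 0.35, while the survival gene Bcl2a1b was higher at 1.08 ± 0.18. Without CCR2-negative replicates 1 and 2, 10 of 10 NK genes were lower (median -6.55), 15 of 18 cell cycle genes were lower and 1 higher (median -2.72), 8 of 18 interferon genes were lower (median -0.32) and 7 of 11 MHC class II genes were higher (median 1.32). Those libraries also moved the homeostatic list to 2 higher and 3 lower and the monocyte list to 5 higher and 9 lower. Leaving out a single library changed other small counts, with 3 to 5 disease-associated genes called lower, 1 to 4 inflammatory genes higher and 2 to 5 lower, 2 to 5 iron genes higher, and 2 to 4 glycolysis genes higher and 3 to 6 lower. CCR2-negative replicate 6 gave the highest of these counts for iron, inflammatory and glycolysis genes called higher. Beside every group above, the neutrophil list took 2.22% to 15.8% of counts in the CCR2-negative gate and 0.0588% to 0.0831% in the CCR2-positive gate, and the part of that difference in the group results was not tested.

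Whether the gates differed in another way with vehicle was asked in a fit of all 22 libraries of the 4 groups. In it, 2890 of 12568 genes differed between gates with inhibitor (23.0%) and 1844 with vehicle (14.7%). Of the genes called with inhibitor, 97.7% had the same sign with vehicle and 51.4% were also called there, and of those called with vehicle, 80.6% were also called with inhibitor. Fold changes of the 2 treatments had a Pearson r of 0.75 across the 12568 genes, which are not independent replicates. The test of the difference itself called 0 genes (0.0%) by edgeR's quasi-likelihood test. The smallest adjusted p was 0.492, and 682 genes had an unadjusted p under 0.05. DESeq2 called 60, of which 19 had a fitted log2 change of more than 20 in size.

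Side by side, list medians lay close together with either treatment for some lists and apart for others. Neutrophil genes had a median of -9.06 with vehicle, where 19 of 20 were lower and 10.3% of all genes were, and took 2.84% to 9.23% of counts in the CCR2-negative gate. NK genes had a median of -5.38 with vehicle, with 9 of 10 lower, and took 0.0767% to 0.383% there against 0.0408% to 1.73% with inhibitor. For lysosomal genes, the vehicle median was 1.04 with 18 of 26 higher, where 4.36% of all genes were. MHC class II genes had a vehicle median of 0.72 with 5 of 11 higher, and Cd74 was at 0.85 (adjusted p = 0.0353) with vehicle, a difference between treatments of 1.03 ± 0.36 that was not called. The list of LXR and its targets had a vehicle median of 0.35 with 3 of 11 higher, beside 1.27 with inhibitor. Border-associated macrophage genes had a vehicle median of -0.47 over 8 genes tested, with 2 higher. Their median of 1.95 with inhibitor covers only the 6 tested in the fit of 12 libraries. Over the same 8 genes the median treatment difference was 1.2. Cell cycle genes had the largest median difference between treatments among lists with at least 10 members tested, -1.51, with 3 of 18 called lower with vehicle and a vehicle median of -0.98. Birc5, for example, was at -1.33 (adjusted p = 0.0773) with vehicle and its treatment difference was -2.26 ± 0.67. Csf1r was at 1.19 with vehicle (adjusted p = 0.0585), and its treatment difference of 0.56 ± 0.56 was not called. Itgb2 was at -0.23 with vehicle and differed by -0.75 ± 0.18. None of these differences passed the adjusted threshold, which does not show that the gates differed alike.

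**Figure D5:**
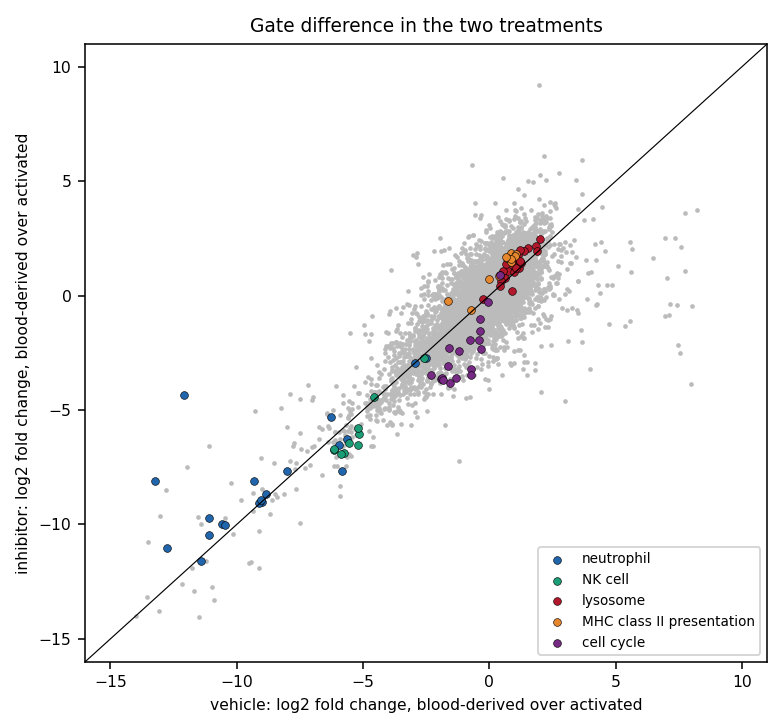
Log2 fold change between gates with inhibitor (vertical axis) against that with vehicle (horizontal axis) from the fit of 22 libraries, for the 11614 genes tested in both fits, each point a gene, with the line of equality. Neutrophil and NK genes lie low on both axes and most lysosomal and MHC class II genes above zero on both.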

How the data were processed

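RNA-seq libraries of sorted mouse brain cells were compared by gate. Per the labels' protocols, cells were sorted straight into lysis buffer, RNA was amplified with SMART-Seq v4 (more PCR cycles for low inputs, which can thin the genes detected), and Nextera XT libraries were sequenced on a NextSeq 500. Amplified reads carry no molecular identifiers, so intervals and floors cover counting error only. The build is GRCm38, per the submitters' processing notes; no source used here gives the aligner or counting program. The table of expected counts deposited by the authors covers 21950 protein-coding genes, and 16.3% of its values were not whole, so they were rounded. The authors also deposited log2 FPKM values, with 1 added, for 27745 genes. Columns were matched by library name, and 0 were left over. Of the counted genes, 21886 had a symbol, taken from a list of gene names or, where that had none, from GENCODE M21. Promoters came from the RefSeq table of GRCm38.p6.

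The 12 libraries held 16462745 to 22146705 counts, at which 3 counts over a group equal 0.0267 CPM in the CCR2-positive and 0.0251 CPM in the CCR2-negative gate. CPM used raw totals. Groups followed the titles. Counts were filtered with filterByExpr, scaled by TMM, tested in R 4.3.3 with edgeR 4.0.16 by the robust quasi-likelihood F test, and p-values were adjusted by Benjamini-Hochberg across the tested genes, with a threshold of 0.05. The gate difference used the 12 inhibitor libraries, and the difference between treatments was an interaction in 22 libraries. All adjusted p-values printed are from this test unless another is named. The code was tested on simulated counts.

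The comparison, its members and the gene lists were chosen with earlier results of these data known. Genes named are the 12 with the smallest p in each direction among called genes that changed by 1 or more on the log2 scale and averaged 10 CPM or more, up to 4 called members per list, and Csf1r, Ccr2, Ptprc, Itgam, Psap, Retnlg and Gzma. Any other gene was named after its values were seen, among them Ly6c2, Ngp, S100a9, Lamp1, Cebpe and Gfi1. Some genes the rule names are not reported here. Clec7a was outside the count table, and Aldoa was left out because its symbol belongs to more than a single ID.

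Alternatives were DESeq2 1.42.0, RLE size factors, library totals, no filter beyond 1 count, limma-voom with quality weights and limma-trend on log2 FPKM (limma 3.58.1), a covariate for detected genes, replicate numbers fitted as a block, all 33 libraries, leaving out libraries under 11000 detected genes, and leaving out each library. Sex as a covariate and the libraries without Y-linked counts alone were added after the data were seen.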

Additional observations from a re-analysis of the deposited data

Results flagged for a closer look

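Of 370 groups of 6 libraries examined, 32 had a lowest or highest library far from the rest, 22 in the CCR2-positive and 10 in the CCR2-negative gate. The measure is the gap to the nearest other library divided by the group's range, on the log2 scale with 1 CPM (a small offset for shares) added, set against Dixon's 95% critical value. Chance flags about 1 in 20 groups.

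In the CCR2-positive gate, replicate 1 stood apart most often, 11 times. It was lowest for Npc2 (0.64, 743 CPM against 877 to 964) and Nr1h2 (0.813). It was highest for Ccnd3 (0.694), Klrb1c (0.639), Gzmb (0.816, 26.1 CPM against 4.94 to 6.86), Selplg (0.651), Rac2 (0.792) and Cd3e (0.658, 40.4 CPM against 2.73 to 7.5), and for the shares of NK genes (0.725, 0.0286% against 0.00573% to 0.00893%), T cell genes (0.652) and astrocyte genes (0.667, 0.00417% against 0.00137% to 0.00199%). Replicate 6 was highest for Fcmr (0.708), Atp6v0e (0.675), Bst2 (0.725) and the shares of MHC class I genes (0.732) and interferon genes (0.635, 0.328% against 0.210% to 0.247%). Replicate 2 was highest for Pltp (0.69) and was the library with any counts of Nlrp12 (1.0) and Ccr3 (1.0). Replicate 3 was highest for Cd79a (0.626) and lowest for the share of endothelial genes (0.692), and replicate 5 lowest for Snx5 (0.643).

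In the CCR2-negative gate, the replicates with few detected genes gave 8 of the 10. Replicate 1 was lowest for Atp6ap2 (0.636), Blvrb (0.745), Cd80 (0.676) and Gpnmb (0.679, 0 CPM against 71.7 to 552) and highest for Ifit1 (0.748, 337 CPM against 129 to 164). Replicate 2 was lowest for Galnt7 (0.678) and Tpi1 (0.68) and highest for S100a6 (0.769, 1804 CPM against 601 to 775). Replicate 3 was lowest for Il1f9 (0.761) and replicate 6 for Cnn2 (0.757).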

How the results depend on the processing

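With inhibitor, 2348 genes were called and 24 other settings gave 1653 to 3969. Counts moved by over 1.5 times with limma-voom with quality weights (3815, with 1647 higher and 2168 lower), limma-trend on log2 FPKM (3623, with 1864 higher and 1759 lower), all 33 libraries (3969, with 1575 higher and 2394 lower) and without CCR2-negative replicates 1 and 2 (3781, with 1590 higher and 2191 lower). The causes were not tested. DESeq2 called 3503, with 2345 of the 2348 among them. Leaving out 1 library gave 1876 to 3144, with 1203 in place of 723 higher genes without CCR2-negative replicate 1. Scaling by totals moved the median of all genes from 0.013 to 0.123 and called 909 higher and 1392 lower. With the replicate number as a replicate block 1653 were called, and the correlations of same-numbered deviations, -0.0549 to 0.1, did not show that numbers pair libraries.

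Of 135 called genes, those of the naming rule and others given values, 117 were called in every setting, 18 lost the call in at least 1 and 0 changed sign. The calls lost most often were Atp6v0e (14 settings), Gpnmb (13), Il7r (13), Sparc (10), Tnf (9), Msr1 (9) and Il1b (8). Of 18 genes not called, 11 were called in at least 1 other setting, most often Lamp2 (8), Sall1 (6) and Elane (5), and 3 changed sign without a call. Tmem119 turned to -0.09 with limma-voom. Il6 turned to 0.44 with limma-voom, 0.20 with limma-trend, 2.47 with the replicate block and 1.0 in libraries without Y-linked counts. Cd80 turned to 0.40 with limma-trend, 0.36 with the block, 0.11 with sex as covariate, 0.71 in libraries without Y-linked counts and 0.22 without CCR2-negative replicate 6, with -0.52 to 0.22 over libraries left out singly. The median neutrophil share in the CCR2-negative gate was 14.4% of summed FPKM in place of 6.38% of counts.

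For the treatment difference, edgeR called 0. DESeq2 called 60, all 33 libraries gave 4, and leaving out 1 library gave 0 to 5, with 5 without CCR2-negative inhibitor replicate 6. Low detection in CCR2-negative libraries limits genes under a few CPM there.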

Other observations

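Within the CCR2-negative gate with inhibitor, the libraries with Y-linked transcripts, replicates 2 and 6, had Gzma at 152 and 104 CPM, Ncr1 at 67.1 and 28.5 and Ccl5 at 235 and 145. The other 4 had Gzma at 880.0 to 4979, Ncr1 at 231 to 1187 and Ccl5 at 1133 to 5435. In the 8 libraries without Y-linked counts, the Gzma log2 fold change between gates was -7.34 (adjusted p = 7.0e-04) and the Ncr1 log2 fold change was -7.28 (adjusted p = 5.6e-04) by edgeR. With vehicle this order was not seen in the CCR2-negative gate, where replicates 1 and 4, which had Y-linked transcripts, held NK shares of 0.0822% and 0.119% and replicates 2, 3 and 5 held 0.226%, 0.383% and 0.0767%. Neutrophil genes did not follow this order, since S100a9 was at 50800 and 22059 CPM in replicates 2 and 6 and at 9418 to 26528 in the other 4. Whether the replicate's sex, its cell number or its sort bears on these values was not tested.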
